A study of Homo sapiens with 10 samples.

Results

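Cells make most of their ATP by oxidative phosphorylation, and the genes of that machinery lie in both genomes of the cell. The members described here were 46 genes: 13 mRNAs and 2 ribosomal RNAs of the mitochondrial genome, and 31 nuclear subunits of the respiratory complexes and ATP synthase. They were chosen by symbol, and each symbol matched 1 row of the 58870 genes in the table. The nuclear members comprised 10 subunits of complex I, 4 of complex II, 5 of complex III, 7 of complex IV and 5 of ATP synthase. They are a selection, and 48 other nuclear subunits were tested as a separate list. All 46 members passed the filter on low counts.

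The study profiled mRNA in LS180, an established human colorectal cancer line, after stable CRISPR interference, in which a guide RNA brings an inactive Cas9 to a promoter and represses it. A pair of control lines carried non-targeting guides (NTC1 and NTC2), and 3 lines carried guides against the ribonuclease gene RNASE1 (sg1, sg2 and sg3). All 5 lines were grown in DMEM with serum and received no drug. Every line gave 1 library lettered A and 1 lettered B, so there were 10 libraries of 39026564 to 45050950 counts. What the letters stand for is not given in the sources used here, and neither is whether A and B were separate cultures or whether a line was 1 clone. P-values therefore measure the spread between these libraries or lines, which may be technical. RNASE1 stood at 16.4 to 23.7 CPM (counts relative to the scaled library total) in the NTC libraries and 1.02 to 3.75 CPM in the guide libraries. All 9 colon epithelial markers were detected, and 3 endothelial markers stayed at or under 0.281 CPM. Of 5 fibroblast markers 3 were under 1 CPM in every library and the highest value of any was 2.64 CPM. Among 5 leukocyte markers 2 were under 1 CPM throughout, and the highest was LYZ at up to 37.4 CPM.

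Complex I takes electrons from NADH and complex II takes them from succinate. Complex III passes them to cytochrome c, complex IV passes them on to oxygen, and ATP synthase uses the resulting proton gradient. The mitochondrial genome is transcribed from both strands into long precursors, which are cut at tRNAs into separate RNAs, most of which receive short poly(A) tails; MT-ND6, read from the other strand, is known to lack a stable tail. Complex II is built from nuclear subunits alone, and the other complexes mix products of both genomes.

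Neighbouring mitochondrial genes share bases, which limits how reads can be assigned to them, and the shared stretches of the 2 bicistronic mRNAs are shown for that reason. Capitals mark the bases that belong to both reading frames, with flanking bases in lower case, from GENCODE 29 transcripts on GRCh38. MT-ATP8 (chrM:8366-8572) and MT-ATP6 (chrM:8527-9207), both subunits of ATP synthase, share 46 bases, and the window shown is chrM:8502-8597 on the plus strand. MT-ND4L (chrM:10470-10766) and MT-ND4 (chrM:10760-12137), both of complex I, share 7 bases, and the window shown is chrM:10735-10791 on the plus strand.
MT-ATP8/MT-ATP6: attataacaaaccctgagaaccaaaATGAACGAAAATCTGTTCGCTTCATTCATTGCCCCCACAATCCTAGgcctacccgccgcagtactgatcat
MT-ND4L/MT-ND4: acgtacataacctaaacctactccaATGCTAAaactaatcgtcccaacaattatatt
The level of MT-ATP8 relative to MT-ATP6 lay between -1.84 and -1.73 on the log2 scale over the 10 libraries, and that of MT-ND4L relative to MT-ND4 between -2.61 and -2.38. Both ratios are of CPM not scaled for length. MT-ND3, by contrast, is a separate RNA that ends 65 bases before MT-ND4L. MT-ND6 (chrM:14149-14673, minus strand) directly follows MT-ND5, and the library procedure described in the labels does not mark strand. Reads of MT-ND6 therefore cannot be told apart from antisense RNA of the plus strand.

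The promoters of 2 nuclear members are shown because they hold motifs known from genes of this pathway. NRF1 (nuclear respiratory factor) binds a motif searched here as GCGCA, any base and GCGC in a row, and ETS factors, among them GABP (NRF2), bind CCGGAAGT. Both motifs were searched on both strands in RefSeq promoter windows of 300 bases around the start of the gene (GRCh38.p14). SDHD, a membrane anchor of complex II, was the member with 1 match to each, and COX5B, of complex IV, had 2 ETS matches. SDHA, of complex II and not printed, had 4 NRF1 matches. The windows are chr11:112086623-112086922 for SDHD and chr2:97645812-97646111 for COX5B, both on the plus strand, with the matches in capitals.
SDHD promoter: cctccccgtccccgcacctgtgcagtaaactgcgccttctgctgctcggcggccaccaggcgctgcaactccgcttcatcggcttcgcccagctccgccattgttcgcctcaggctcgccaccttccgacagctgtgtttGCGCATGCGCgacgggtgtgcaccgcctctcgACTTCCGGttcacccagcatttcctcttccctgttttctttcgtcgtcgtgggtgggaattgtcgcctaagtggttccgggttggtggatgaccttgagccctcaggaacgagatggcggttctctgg
COX5B promoter: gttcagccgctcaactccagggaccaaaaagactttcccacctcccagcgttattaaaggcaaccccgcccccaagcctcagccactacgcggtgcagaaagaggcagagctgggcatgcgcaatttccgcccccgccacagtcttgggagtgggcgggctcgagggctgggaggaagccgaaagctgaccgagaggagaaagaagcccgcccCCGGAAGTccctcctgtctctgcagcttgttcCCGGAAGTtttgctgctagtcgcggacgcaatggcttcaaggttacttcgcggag
For 26 of the 31 nuclear members the table held 30 promoters. An NRF1 match was present in 23.3% of these, against 9.46% of 15696 promoters of tested genes. An ETS match was present in 20% of the members' promoters, against 7.10% of the same background. These matches describe letters in the window and are not binding sites.

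Per kilobase of exon, each mitochondrial mRNA except MT-ND6 had a higher mean level than every nuclear member of its complex. In complex IV, MT-CO1, the catalytic core subunit, averaged 2054 CPM per kb, and the highest nuclear member, COX5A, 157. In complex I, MT-ND3 averaged 1203 CPM per kb and NDUFB10 130. In complex III, MT-CYB, its only mitochondrially encoded subunit, averaged 431 and UQCRC1 128 CPM per kb. In ATP synthase, MT-ATP6 averaged 1228 CPM per kb and the catalytic beta subunit ATP5F1B 630. SDHD led complex II at 61.2 CPM per kb. Exon length adds the exons of all transcripts of a gene and so lowers the values of nuclear genes with many transcripts. By the median length of basic transcripts SDHC led complex II (374 CPM per kb), UQCRQ complex III (317) and COX4I1 complex IV (482), whereas NDUFB10 and ATP5F1B stayed first, and the order between the genomes held. MT-ND6 was the lowest mitochondrial mRNA at 14.1 CPM per kb. Of the ribosomal RNAs, MT-RNR2 averaged 1586 and MT-RNR1 523 CPM per kb.

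Of the total counts, the 13 mitochondrial mRNAs together took 0.871% to 1.15%, and the 31 nuclear members 0.716% to 0.771%. Line sg1 spanned the whole range of the mRNAs, with 0.871% in A and 1.15% in B. Within the libraries lettered A, NTC2 stood apart at 1.13%, and the other 4 lay between 0.871% and 0.913%.

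The calls among these genes were between the letters. Between B and A libraries, with line as a block, 12 of the 46 members rose and 22 fell, against 29.6% of all 16411 genes tested that were called in either direction (14.6% higher and 15% lower). Since the members are abundant, the 5425 genes at a mean of 40 CPM or more are the closer background, and 49.4% of these were called (22.3% higher and 27.2% lower). Of the 13 mitochondrial mRNAs 8 rose, 1 fell and 4 did not pass, with a median log2 change of 0.24; without line NTC2 10 rose, 1 fell and the median was 0.31. Both ribosomal RNAs fell. Of the 31 nuclear members 4 rose, 19 fell and 8 did not pass, with a median of -0.09, against 0.0004 over all genes tested and -0.02 over those at 40 CPM or more. Without line NTC2 4 nuclear members rose and 11 fell, with a median of -0.07. In that fit 26.4% of 16242 genes were called, and 45.8% of the 5425 at 40 CPM or more, so the nuclear count was near the closer background. Changes of nuclear members were small, from -0.19 to 0.17 on the log2 scale, whereas MT-ND4 was higher in B by 0.42 on that scale (33.6%). The A and B libraries did not overlap for 3 of 13 mitochondrial mRNAs, both ribosomal RNAs and 13 of 31 nuclear members, against 19.2% of all genes. That share was not computed for genes at 40 CPM or more, so no excess among the members is read from these counts. In RNA from whole cultures, fewer cells of a kind and less RNA per cell cannot be told apart.

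**Figure D1:**
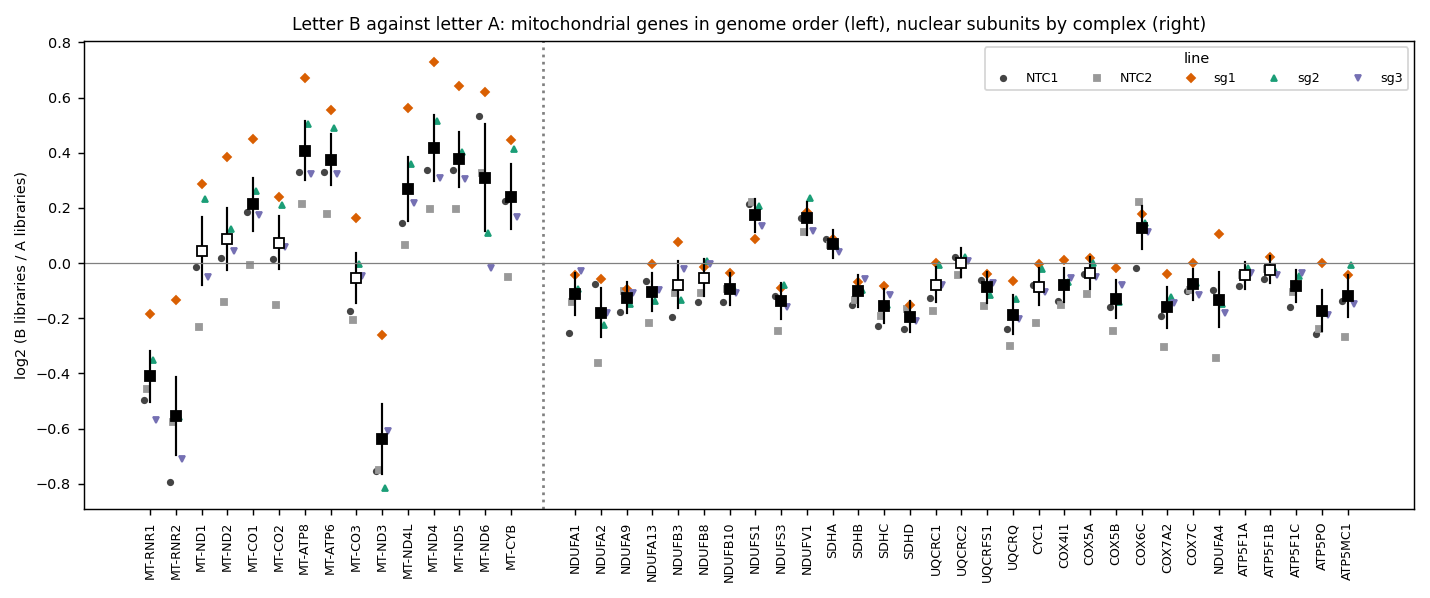
Log2 ratio of B to A libraries for the 46 members; black squares are the fitted value with its 95% interval (filled where the edgeR adjusted p was under 0.05, open otherwise) and coloured points the 5 lines. Mitochondrial genes run in genome order on the left, and MT-ND3 at -0.64 and both ribosomal RNAs lie below 0 while most other mitochondrial mRNAs lie above it.

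Both mitochondrial ribosomal RNAs, the RNAs of the organelle's own ribosome, were lower in B. Values are given in the order NTC1, NTC2, sg1, sg2 and sg3 throughout. MT-RNR2 (chrM:1671-3229), the large subunit RNA, stood at 3321, 3530.5, 2429, 2523 and 2928 CPM in A and 1916, 2368, 2211, 1712 and 1791 CPM in B. Every B library was below every A library. The log2 change was -0.55 (SE 0.07, edgeR adjusted p = 5.46e-05), and it was smallest in sg1. MT-RNR1 (chrM:648-1601), the small subunit RNA, stood at 582, 639, 539, 526 and 559 CPM in A and 413, 466, 475, 412 and 378 CPM in B, again with no overlap. Its log2 change was -0.41 (SE 0.04, edgeR adjusted p = 2.30e-05). The ribosomal RNAs made up 25.2% to 29.7% of mitochondrial counts in A and 16.6% to 20.3% in B. Capture was on oligo(dT) beads per the labels, so these are the fractions that such capture retained.

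In complex I the mitochondrial mRNAs moved in opposite directions. MT-ND3 (chrM:10059-10404), a small membrane subunit, stood at 534, 608, 429.6, 484 and 479 CPM in A and 317, 362, 359, 275 and 314 CPM in B. It was lower in B in all 5 lines, and the letters did not overlap. The log2 change of -0.64 (SE 0.06, edgeR adjusted p = 1.08e-05) was the most negative of the 46 members. MT-ND3 made up 4.94% to 5.77% of mitochondrial mRNA counts in A and 2.59% to 3.25% in B. The share of A in its sequence, 29.5%, was within the range of the plus-strand mRNAs, which ran from 26.8% in MT-CO3 to 38.6% in MT-ATP8. Within any 30 bases MT-ND3 held at most 14 A and MT-ND4L, which rose, 12, against 16 to 20 in the other plus-strand mRNAs. The ribosomal RNAs, which fell like MT-ND3, held at most 16 (MT-RNR1) and 19 (MT-RNR2). A relation of A content to the letter change was not tested.

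MT-ND4, MT-ND4L and MT-ND5, membrane subunits that lie downstream of MT-ND3 on the genome, rose. MT-ND4 stood at 872, 1084, 772, 842 and 850.4 CPM in A and 1102, 1243, 1280.1, 1205 and 1053 CPM in B, and its log2 change of 0.42 (SE 0.06, edgeR adjusted p = 1.27e-04) was the most positive among the members. It was higher in B in all 5 lines, but NTC2 in A was above sg3 in B. MT-ND5 (chrM:12337-14148) went from 371, 406, 333, 365 and 361 CPM to 468, 465, 519, 482 and 446 CPM with no overlap (0.38, SE 0.05, edgeR adjusted p = 7.91e-05). MT-ND4L stood at 168, 204, 146, 154 and 153 CPM in A and 185, 213, 215, 198 and 177 CPM in B (0.27, edgeR adjusted p = 0.00212), with overlap. MT-ND6 was present at only 5.75, 7.06, 5.62, 6.76 and 7.85 CPM in A and 8.33, 8.86, 8.65, 7.29 and 7.75 CPM in B. Its call (log2 change 0.31, SE 0.09, edgeR adjusted p = 0.0185) was lost without line NTC1 or line sg1, and in sg3 the B library was not above the A library. MT-ND1 and MT-ND2 lay at 0.04 and 0.09 and did not pass.

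Of the 10 nuclear complex I members 2 rose, 6 fell and 2 did not pass. NDUFS1, which carries iron-sulfur clusters in the peripheral arm, stood at 150.2, 142, 149.8, 148 and 149.6 CPM in A and 174, 165, 159, 171 and 164 CPM in B. NDUFV1, the subunit that binds NADH and FMN, stood at 168, 171, 173, 169 and 175 and 189, 185, 196, 199 and 189 CPM. Neither gene's letters overlapped, with log2 changes of 0.17 (SE 0.03) and 0.16 (SE 0.03) and edgeR adjusted p-values of 5.61e-04 and 6.62e-04. Both belong to the peripheral arm of the complex, as does NDUFS3, which fell from 108, 115, 112, 109.9 and 108 to 99.9, 97.1, 105, 104 and 96.6 CPM (-0.14, edgeR adjusted p = 0.00389). Of the accessory subunits, NDUFA9 fell from 155, 158, 151, 152 and 148 to 137, 147, 142, 137 and 137 CPM (-0.13, edgeR adjusted p = 0.00279), and NDUFA2 from 52.05, 58.3, 52.8, 54.9 and 52.1 to 49.4, 45.4, 50.8, 46.99 and 45.99 CPM (-0.18, edgeR adjusted p = 0.00525). The letters of these 3 genes did not overlap. NDUFA1, NDUFA13 and NDUFB10 fell by 0.11, 0.10 and 0.09, whereas NDUFB3 (-0.08) and NDUFB8 (-0.05) did not pass.

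Complex II, succinate dehydrogenase, also split by subunit. SDHA, the flavoprotein that oxidises succinate, stood at 288, 288, 289, 292 and 295 CPM in A and 306, 302, 307, 305 and 304 CPM in B (0.07, edgeR adjusted p = 0.0443). SDHB, the iron-sulfur subunit, stood at 144, 147, 143, 144 and 141 CPM in A and 130.1, 134, 136, 135 and 135 CPM in B (-0.10, edgeR adjusted p = 0.0112). The 2 membrane anchors fell further: SDHC (-0.16, edgeR adjusted p = 0.00109) and SDHD (-0.19, edgeR adjusted p = 1.31e-04), the latter from 186, 194, 181, 188 and 178 to 157, 173, 163, 164 and 154 CPM. SDHD had the most negative change among the nuclear members. A relation of promoter motifs to the letter change was not tested. The letters overlapped in none of the 4 genes, and the rise of SDHA was small and was lost in 5 of 12 alternative settings. SDHC stood at 187, 192, 173, 181 and 174 CPM in A and 159.6, 168, 163, 162 and 161 CPM in B.

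In complex III the mitochondrial subunit rose and the nuclear members did not. MT-CYB (chrM:14747-15887), cytochrome b, stood at 419, 545, 417, 431 and 444 CPM in A and 491, 526, 568, 574 and 499 CPM in B. It was higher in B in every line except NTC2 (0.24, SE 0.05, edgeR adjusted p = 0.00455). UQCRQ, a small accessory subunit, fell from 200.1, 206, 198, 194 and 191 to 169.7, 167, 189, 178 and 166 CPM (-0.19, edgeR adjusted p = 9.23e-04). UQCRFS1, the Rieske iron-sulfur protein, fell from 203, 225, 208, 213 and 207 to 195, 202, 203, 196 and 197 CPM (-0.09, edgeR adjusted p = 0.023). Neither gene's letters overlapped, although UQCRFS1 came close, with an A minimum of 203.3 and a B maximum of 202.9 CPM. The core protein UQCRC1 stood at 424, 451, 413, 416 and 418 CPM in A and 389, 399.9, 413, 414 and 395 CPM in B and did not pass (-0.08), nor did UQCRC2 (0.0009) or cytochrome c1, CYC1 (-0.08).

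In complex IV only MT-CO1 of the 3 mitochondrial subunits rose. MT-CO1 (chrM:5904-7445) stood at 2832, 3529, 2739, 2794 and 2793 CPM in A and 3223, 3514, 3739.6, 3349.5 and 3154 CPM in B. It was higher in B in 4 lines and near level in NTC2 (0.21, SE 0.04, edgeR adjusted p = 0.00287). MT-CO2 at 0.07 and MT-CO3 at -0.05 did not pass, with 95% intervals of -0.02 to 0.17 and -0.14 to 0.04. Of 7 nuclear members 1 rose and 5 fell. The one that rose, COX6C, a small structural subunit, stood at 49.3, 47.97, 49.8, 48.6 and 47.2 CPM in A and 48.7, 55.97, 56.3, 53.8 and 50.98 CPM in B (0.13, edgeR adjusted p = 0.0167). COX7A2 fell from 140.1, 153, 140.1, 139 and 131 to 123, 124, 136, 128 and 119 CPM (-0.16, edgeR adjusted p = 0.00334). COX5B fell from 206, 211, 204, 205 and 198 to 184, 178, 201, 186 and 187 CPM (-0.13, edgeR adjusted p = 0.00807). The letters overlapped in all 3 of these genes. COX7C fell from 257, 263, 245, 247 and 246 to 239.8, 245, 246, 235 and 227 CPM (-0.08, edgeR adjusted p = 0.0413), and its call was lost in 6 of 12 alternatives. COX4I1 and NDUFA4 also fell, by 0.08 and 0.13, and COX5A stood at 222, 236, 219, 222 and 223 and 216, 218, 222, 222 and 215 CPM and did not pass (-0.04).

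In ATP synthase both mitochondrial mRNAs rose and no nuclear member did. MT-ATP6, the channel subunit of the proton path, stood at 688, 879, 679, 699 and 701 CPM in A and 865, 994, 998, 981 and 877 CPM in B (0.37, SE 0.04, edgeR adjusted p = 4.20e-05). MT-ATP8 went from 201, 252, 189, 198 and 203 to 253, 292, 301, 281 and 254 CPM (0.41, SE 0.05, edgeR adjusted p = 7.11e-05). Both were higher in B in all 5 lines, and the letters of MT-ATP8 did not overlap. Of the 5 nuclear members 3 fell. ATP5PO, the stalk subunit known as OSCP, fell from 203, 209, 197, 197 and 192 to 169.9, 177, 197, 174 and 168 CPM (-0.17, edgeR adjusted p = 0.00218). ATP5MC1, which encodes a copy of the rotating c subunit, fell from 109.7, 120.3, 106, 107 and 108 to 99.7, 100.02, 103, 107 and 97.8 CPM (-0.12, edgeR adjusted p = 0.021). ATP5F1C, the central stalk subunit, stood at 238, 243, 228, 223 and 223 CPM in A and 213, 226, 216, 216 and 218 CPM in B (-0.08, edgeR adjusted p = 0.0305). The most abundant nuclear member, ATP5F1B, stood at 1476, 1518, 1449, 1479 and 1454 CPM in A and 1419.5, 1495, 1473, 1456 and 1412 CPM in B and did not pass (-0.02), nor did its partner ATP5F1A (-0.04).

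**Figure D2:**
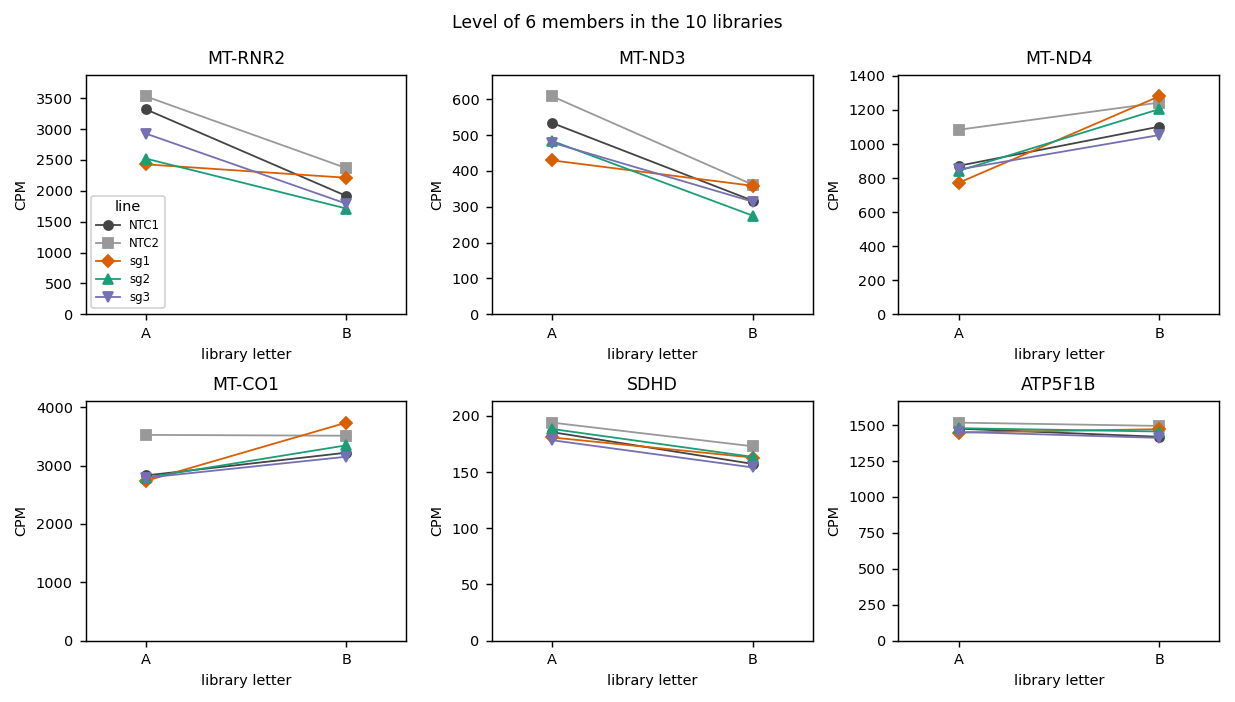
CPM of 6 members in the A and B library of each of the 5 lines, with the y axis from 0 and lines joining the libraries of 1 line. MT-RNR2 and MT-ND3 are lower in B in every line, MT-ND4 is higher, and ATP5F1B hardly moves.

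The ratio of summed mitochondrial to summed nuclear CPM within a complex was higher in B in all 5 lines for complexes I, III, IV and V. The mean rise over lines was 0.17 ± 0.17 (SD, n = 5) in complex I, 0.32 ± 0.15 in complex III, 0.21 ± 0.09 in complex IV and 0.43 ± 0.13 in ATP synthase, on the log2 scale. Without NTC2 the means over the other 4 lines were 0.22, 0.37, 0.24 and 0.48 in the same order. The smallest rise of complex I was 0.01, in NTC2, and the largest 0.44, in sg1. In NTC2 the mitochondrial sums of complexes I, III and IV were themselves lower in B, by -119.8, -18.9 and -379.2 CPM. The nuclear sums there changed by -45, -153.4 and -178.2 CPM, a larger fall in proportion, so the ratios rose. Only in ATP synthase was the mitochondrial sum of NTC2 higher in B (1286.3 against 1130.7 CPM). These sums weight abundant genes most, and MT-ND3 and MT-ND4 enter the sum of complex I with changes of opposite sign.

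**Figure D3:**
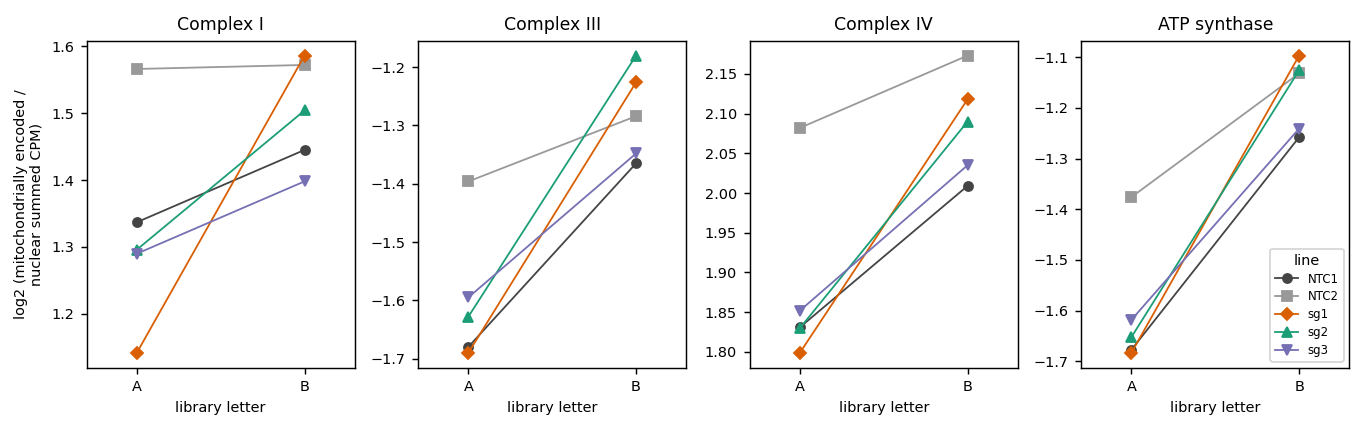
Log2 ratio of summed CPM of the mitochondrially encoded to the nuclear members of a complex, for the A and B library of each line. The y axes differ between panels, and in complex IV and ATP synthase NTC2 in A lies above the other 4 A libraries.

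Among other genes of the pathway the share called between letters ran from 20% to 51% over 7 lists of 10 or more tested genes. Against 29.6% of all genes and 49.4% of those at 40 CPM or more, no list's share in either direction stood far above the background. Called lower were 15% of all genes and 27.2% of those at 40 CPM or more. Other nuclear subunits, mitochondrial ribosomal proteins and assembly factors were called lower in a larger share than both backgrounds. Of 48 other nuclear subunits none rose and 20 fell, led by NDUFAB1 (-0.22, edgeR adjusted p = 9.35e-05), the mitochondrial acyl carrier protein. Of 80 mitochondrial ribosomal proteins 1 rose and 39 fell, among them MRPL18 (-0.24), MRPL11 (-0.21) and MRPL52 (-0.21). Assembly factors gave 5 higher and 20 lower of 49 table rows, with TMEM126B at -0.27, COA4 at -0.18 and NDUFAF5 at -0.24. Factors of mitochondrial transcription gave 2 higher and 1 lower of 15, with the elongation factor TEFM at -0.24. RNA processing and stability factors gave 3 higher and 6 lower of 23, with LRPPRC, which stabilises mitochondrial mRNAs, at 0.18. Biogenesis regulators gave 3 higher and 1 lower of 10, with the coactivator PPARGC1B at 0.34 (edgeR adjusted p = 4.44e-05). Citric acid cycle enzymes gave 3 higher and 1 lower of 14. The nuclear copy MTATP6P1, which shares sequence with MT-ATP6, stood at 85.9 to 136 CPM and rose by 0.41, so part of either gene's reads may be assigned to the other. The epithelial keratins moved with the letter as well: KRT8 and KRT18 each changed by -0.38, and of 9 epithelial markers 3 rose and 3 fell. Their part in the letter difference of the members was not tested.

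Knockdown of RNASE1 was compared over lines, with A and B summed. None of the 46 members passed with edgeR, against 0.0231% of 17335 genes tested (0.0173% higher and 0.00577% lower). With DESeq2 0 members passed, against 0.317% of genes tested and 1.01% of those at 40 CPM or more. At an unadjusted edgeR p under 0.05 stood 4 members, against 7.98% of all genes tested and 11.4% of those at 40 CPM or more. Over the 46 members together this count is near the background. By genome, the 4 were 2 of 13 mitochondrial mRNAs, both ribosomal RNAs and 0 of 31 nuclear members. MT-RNR2 lay at -0.28 (SE 0.05, 95% interval -0.39 to -0.17, edgeR adjusted p = 0.150) and MT-ND3 at -0.21 (SE 0.05, edgeR adjusted p = 0.228). MT-ND4L at -0.15 and MT-RNR1 at -0.12 were the other pair. All 13 mitochondrial mRNAs had negative values, with a median of -0.08, while the nuclear members had a median of -0.01 with 21 negative and 10 positive. The 95% interval of each of the 46 members lay within a 1.5-fold change in either direction. The same held for 12810 of 17335 genes tested and 5424 of 5425 at 40 CPM or more, so it is not particular to the members.

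The sign of the mitochondrial median changed with the letter and without line NTC2. Within A, the 3 guide lines lay below both NTC lines for 7 of 13 mitochondrial mRNAs, both ribosomal RNAs and 14 of 31 nuclear members, against 12.3% of all genes. Within B this held for none of the 46 (11.1% of all genes). Above both NTC lines lay SDHA in A (13.7% of all genes), and in B 4 nuclear members, NDUFB8, NDUFV1, SDHB and COX5B (11.3% of all genes). The median of the mitochondrial mRNAs was -0.21 with A libraries alone and 0.02 with B libraries alone. Without line NTC2 it was 0.03, and without line NTC1 it was -0.20, with 5 members called by edgeR, against 0.161% of 17979 genes: MT-CO2, MT-CO3, MT-ND3, MT-ND4L and MT-RNR2. In both fits the lone NTC line was assumed to vary like the guide lines. Without library NTC2 A alone the median was -0.09, but the letters are then unbalanced between the arms.

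NTC2 had higher values than NTC1 for all 13 mitochondrial mRNAs, with a median log2 difference of 0.23, and for 27 of 31 nuclear members, with a median of 0.05. None of the 46 members passed with edgeR or DESeq2 (edgeR called 0% of 16411 genes), and MT-CO2 (0.31, SE 0.10) and MT-CO3 (0.29, SE 0.09) had an unadjusted edgeR p under 0.05, as did 1.72% of all genes and 0.184% of those at 40 CPM or more. Without library NTC2 A the medians were 0.21 and -0.03, but NTC2 is then its B library alone against both letters of NTC1. The 3 guide lines, each compared with the same NTC lines, gave medians of -0.03 for sg1, -0.07 for sg2 and -0.13 for sg3 over the mitochondrial mRNAs. No member was called in any of them by edgeR or DESeq2, against 0.00609% of genes called by edgeR in each, and MT-RNR2 lay at -0.26, -0.39 and -0.24. These fits had no letter block, and in them no member had an unadjusted edgeR p under 0.05, against 2.3%, 1.82% and 2.16% of genes (0.94%, 0.516% and 0.719% at 40 CPM or more). With the letter as a block again no member was called, but 2, 4 and 11 members had an unadjusted edgeR p under 0.05, against 7.56%, 6.14% and 7.43% of genes (8.77%, 6.71% and 9.79% at 40 CPM or more). Because the control lines are shared, these 3 comparisons are not independent.

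**Figure D4:**
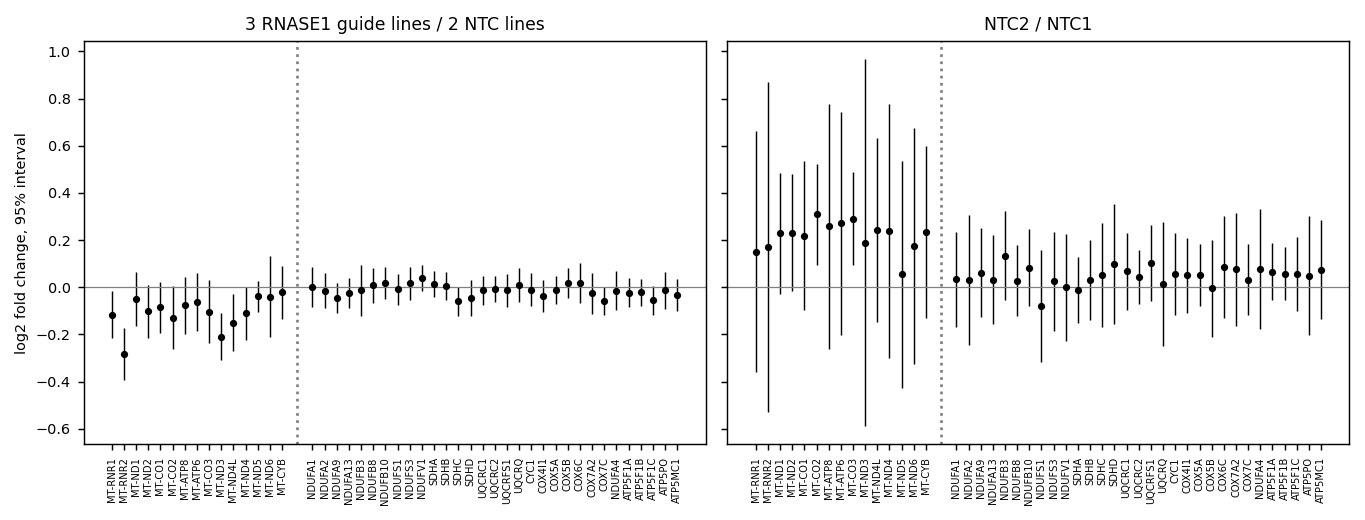
Log2 fold change with 95% interval for the 46 members, for guide against NTC lines (left) and NTC2 against NTC1 (right), mitochondrial genes first. All 13 mitochondrial mRNAs are below 0 on the left and above 0 on the right, and no member passed the edgeR test in either.

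Whether the letter difference itself differed between arms was tested as an interaction. No member passed with edgeR or DESeq2 (edgeR called 0% of 16411 genes), and 18 members had an unadjusted edgeR p under 0.05, 11 of them mitochondrial mRNAs and 7 nuclear, against 5.73% of all genes and 7.12% of those at 40 CPM or more. With DESeq2 7 members did, against 1.69% and 3.47%. The difference, guide minus NTC lines in the B minus A change, was positive for 12 of 13 mitochondrial mRNAs, with a median of 0.23, and for 29 of 31 nuclear members, with a median of 0.07. The mitochondrial median was 0.16 without line NTC2, 0.30 without NTC1 and 0.15 without sg1, each with 12 of 13 positive. The nuclear medians were then 0.06, 0.08 and 0.06, with 25, 26 and 28 of 31 positive. Without NTC2 or NTC1 the NTC arm held 1 line, so no p-value is used for those fits. With all lines, MT-CO3 had the smallest p (0.23, SE 0.06, edgeR adjusted p = 0.801).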

How the data were processed

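Gene-level expected counts, from RSEM according to the deposited table's name, were available for 10 mRNA libraries captured on oligo(dT) beads per the labels' protocols. The submitters' processing notes name hg38 as build and list FastQC 0.11.2, TopHat2 2.0.8 and CASAVA 1.8.2 without roles; the annotation is not stated there. Reads that match more than 1 gene are shared out by RSEM, which leaves overlapping genes and near-identical copies uncertain. The expected counts were rounded, which moved no value by more than 0.5 (7.12% were not whole). The edgeR 4.0.16 quasi-likelihood test in R 4.3.3 (glmQLFit, TMM, filterByExpr, two-sided) was fitted to all genes, with Benjamini-Hochberg adjustment over all genes tested and a threshold of 0.05. Arms were compared on A and B summed per line, letters with line as a block, single lines on 5 line means, and the arm by letter term as an interaction. CPM used TMM-scaled totals, and length-scaled levels used GENCODE 29 exon lengths. The scripts were tested on simulated data. Alternatives were DESeq2 1.42.0, DESeq2's size factors, other filters, scaling on nuclear genes, a letter block, a GC correction, single letters and leaving out lines or libraries.

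The letters were treated as pairing the libraries because, in all 10 pairs of lines, same-letter libraries deviated together from their line means (r 0.483 to 0.779 over 9527 genes at 10 CPM or more, a bound chosen with earlier results known). Over all 16411 genes tested 8 of 10 pairs exceeded 0.1. Members and lists were chosen with earlier results of these data known. Values per library are given for members past the threshold (with more than 8 in a direction, the 3 with the smallest p per complex and genome), for the most abundant member per complex and genome, and for MT-ND6, MT-RNR1 and MT-RNR2; from other lists up to 3 genes are named. The 40 CPM background and the transcript length measure were chosen after seeing the data.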

Additional observations from a re-analysis of the deposited data

Results flagged for a closer look

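In 20 groups of 5 libraries, each a summed measure of the members within 1 letter, 6 had a highest or lowest library whose gap to the nearest other was large against the group's range; chance flags about 1 in 20 groups. Library NTC2 A accounted for 5 of them. Its mitochondrial mRNAs took 1.13% of counts, against 0.871% to 0.913% in the other A libraries, and its nuclear members 0.771%, against 0.736% to 0.745%. The log2 ratio of mitochondrial mRNAs to nuclear members was 0.55 there, against 0.22 to 0.30. For complex IV the ratio was 2.08, against 1.799 to 1.852, and for ATP synthase -1.38, against -1.68 to -1.62. These 5 measures share genes and are not independent. Library sg2 B had a log2 ratio of MT-ND3 to MT-ND4 of -2.13, against -1.84 to -1.74 in the other B libraries.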

How the results depend on the processing

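Of the 34 members called between letters none changed direction in 12 alternatives, and 8 of 9 mitochondrial mRNAs, both ribosomal RNAs and 11 of 23 nuclear members passed in all 12; MT-ND6 and the other nuclear calls were lost in 1 to 6 of them, mostly when a line was left out. Between arms, the median of the mitochondrial mRNAs was -0.21 with A libraries only and 0.0212 with B libraries only, and leaving out a line or library gave -0.1995 to 0.0334. The nuclear median was -0.0607 with A only and 0.0375 with B only, and -0.0531 to 0.0263 when a line or library was left out. Members called between arms numbered 8 without the filter on low counts (0.835% of 28488 genes), 1 (MT-RNR2) with A libraries only (0.0696% of 15811 genes), and 0 to 5 when a line or library was left out (5 without line NTC1, with 0.161% of genes). MT-CO1 was at 0.0212 between arms with B only, and at -0.19 to 0.0258 when a line or library was left out. For sg1 the median of the mitochondrial mRNAs ran from -0.27 without library sg1 B to 0.19 without sg1 A. Line sg1 is then 1 letter against both letters of the NTC lines, so line and letter cannot be told apart. Without the filter 1, 2 and 1 members were called for sg1, sg2 and sg3, 2 between NTC2 and NTC1, and 11 for the arm by letter term, against 0.242%, 0.333%, 0.302%, 0.2% and 0.355% of genes; the cause was not tested. Between NTC2 and NTC1, leaving out a library gave -0.0261 to 0.1284 for the nuclear median, and -0.24 to 0.61 for MT-ND3 and -0.17 to 0.62 for MT-RNR2, with the negative values without NTC2 A or NTC1 B. Without an NTC library, that line is likewise 1 letter against both letters of the other. With the letter as a replicate block the arms medians were -0.09 and -0.02, and the block changed no call of a member. Without spike-ins in use here, all levels are relative to the library total, and MT-ND6, at under 9 CPM, had the widest interval of the mitochondrial mRNAs between letters.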

Other observations

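The mitochondrial complex IV relative NDUFA4L2, known as a hypoxia-responsive paralog of NDUFA4, was the member of the tissue-restricted isoform list that passed the filter, and it fell between letters. It stood at 1.17, 1.49, 1.84, 2.19 and 2.06 CPM in A (NTC1, NTC2, sg1, sg2 and sg3) and 0.197, 0.0475, 0.358, 0.141 and 0.167 CPM in B, with no overlap. The log2 change was -3.27 (SE 0.30, edgeR adjusted p = 1.02e-05), at levels of few reads in B. Of 22 mitochondrial tRNAs 14 were listed at 0 in all 10 libraries, and none exceeded 0.143 CPM.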
